A study of Mus musculus with 9 samples.

Results

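The 7 loci described here are those of naive pluripotency genes, followed through a fractionation of nuclei from mouse embryonic stem cells: Klf4, Klf2, Klf5, Esrrb, Prdm14, Tfcp2l1 and Zfp42. Each locus is a window given by fixed mm9 coordinates, and a fragment made by the restriction enzyme StyI belongs to it when its midpoint lies inside. The 7 windows hold 946 of the 3053721 StyI fragments of the genome, or 64 of its 256148 bins of 10 kb. The Klf4 window runs from 55450001 to 55570000 on chromosome 4 and holds 154 fragments. The windows of Klf2 (74810001 to 74870000, 102 fragments) and Zfp42 (44360001 to 44400000, 36 fragments) lie on chromosome 8. Those of Prdm14 (13080001 to 13140000, 87 fragments) and Tfcp2l1 (120500001 to 120600000, 168 fragments) lie on chromosome 1. The Klf5 window spans 99660001 to 99740000 on chromosome 14 with 83 fragments, and the Esrrb window spans 87690001 to 87870000 on chromosome 12 with 316. No mm9 annotation was used here, so exons, introns and start sites inside the windows are not given. No RNA was measured in these libraries, and whether the cells expressed the 7 genes was not tested.

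All libraries came from E14Tg2a, an embryonic stem cell line of 129P2 background grown on gelatin in serum-containing medium with LIF, the cytokine that keeps mouse embryonic stem cells undifferentiated. The assay maps high-salt recovered sequences (HRS): nuclei are extracted with salt, the DNA is cut with StyI, and DNA kept with the insoluble nuclear material is separated from DNA that is released. The groups were 3 HRS libraries (the kept DNA), 3 Loop libraries (the released DNA) and 3 libraries of genomic DNA used as input, titled D0, D12 and D21, titles that the labels do not explain. The fragment tables summed to 39.1 to 52.5 M counts in HRS, 58.7 to 62.9 M in Loop and 55.2 to 62.2 M in input. The labels do not state whether replicates were grown apart, so every p here reflects library-to-library spread, which may be technical.

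Naive pluripotency is the state of the early epiblast that mouse embryonic stem cells keep in culture, and it is held by a network of transcription factors that regulate one another. Klf4, Klf2 and Klf5 are zinc finger factors of the Krüppel-like family with overlapping roles in self-renewal, Esrrb is an orphan nuclear receptor, and Tfcp2l1 is a CP2-family factor that acts downstream of LIF. Prdm14 is a PR-domain protein that holds back FGF signalling and DNA methylation, and Zfp42, also called Rex1, is a zinc finger protein whose expression is used as a marker of the naive state. In the RefSeq gene order of GRCm38 the neighbours are Rad23b and Actl7b at Klf4, Ap1m1 and Eps15l1 at Klf2, Pibf1 and Klf12 at Klf5, Gpatch2l and Vash1 at Esrrb, Slco5a1 and Ncoa2 at Prdm14, Clasp1 and Gli2 at Tfcp2l1, and Triml2 and Adam26b at Zfp42.

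Since the counts are those of StyI ends, promoters of the 7 genes were searched for the letters that StyI cuts (CCAAGG with CCTTGG on the opposite strand, the palindrome CCATGG and, of the same kind, the palindrome spelled CCTAGG). RefSeq promoters of GRCm38.p6, each from 250 bases before to 50 bases after a start, were matched for 5 of the 7 genes. A site occurred in those of Klf4, Klf2, Tfcp2l1 and Zfp42, against 34.5% of the 32851 promoters searched (11333), and in neither of the 2 promoters of Esrrb. Klf5 and Prdm14 had no entry. The 4 promoters with a site are shown because a cut there ends a counted fragment next to the gene's start. Each reads 5′ to 3′ on the gene's strand, with the StyI site in capitals.
Klf4 promoter, chr4:55532426-55532725, minus strand, GRCm38.p6: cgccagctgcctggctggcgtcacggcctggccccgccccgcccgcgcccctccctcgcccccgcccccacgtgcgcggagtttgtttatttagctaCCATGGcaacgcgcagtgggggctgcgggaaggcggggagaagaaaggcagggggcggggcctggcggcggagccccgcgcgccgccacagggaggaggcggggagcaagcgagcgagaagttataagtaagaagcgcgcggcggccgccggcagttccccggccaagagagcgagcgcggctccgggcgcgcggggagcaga
Klf2 promoter, chr8:72318812-72319111, plus strand, GRCm38.p6: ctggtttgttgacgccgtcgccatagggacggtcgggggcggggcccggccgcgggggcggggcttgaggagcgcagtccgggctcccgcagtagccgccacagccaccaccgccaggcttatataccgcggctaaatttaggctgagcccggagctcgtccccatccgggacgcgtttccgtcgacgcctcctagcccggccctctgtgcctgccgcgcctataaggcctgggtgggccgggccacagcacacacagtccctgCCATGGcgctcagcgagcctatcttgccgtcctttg
Tfcp2l1 promoter, chr1:118627695-118627994, plus strand, GRCm38.p6: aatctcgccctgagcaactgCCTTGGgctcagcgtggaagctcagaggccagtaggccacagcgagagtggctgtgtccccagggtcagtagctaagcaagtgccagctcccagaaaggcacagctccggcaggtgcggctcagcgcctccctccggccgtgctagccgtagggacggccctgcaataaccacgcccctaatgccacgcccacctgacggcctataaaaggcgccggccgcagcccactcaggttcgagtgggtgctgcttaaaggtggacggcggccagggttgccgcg
Zfp42 promoter, chr8:43306960-43307259, minus strand, GRCm38.p6: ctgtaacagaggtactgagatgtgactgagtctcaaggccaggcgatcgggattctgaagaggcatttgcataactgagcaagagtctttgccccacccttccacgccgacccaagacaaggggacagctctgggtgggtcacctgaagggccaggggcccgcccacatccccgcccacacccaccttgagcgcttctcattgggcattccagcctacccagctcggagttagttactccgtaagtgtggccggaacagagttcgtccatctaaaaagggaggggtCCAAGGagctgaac
The site begins 153 bases before the start in Klf4 and 230 before it in Tfcp2l1, and 15 bases after it in Klf2 and 37 after it in Zfp42. The bases G and C made up 74.3% of the Klf4 promoter, 69.3% of that of Klf2, 65.3% of that of Tfcp2l1 and 57.7% of that of Zfp42. These coordinates belong to another build than the counts, so the fragments beside these sites were not identified.

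The groups differed in the lengths of the fragments they held, which bears on every value below. Fragments of up to 200 bp took 28.9% to 32.0% of all counts in HRS libraries, 46.8% to 55.6% in Loop libraries and 25.6% to 27.0% in input libraries. Of the locus fragments, 33.3% were that short at Prdm14 and 34.5% at Tfcp2l1, but 13.3% at Klf5 and 13.9% at Zfp42. Within the Zfp42 window they held 16.9%, 18.8% and 19.7% of the counts in HRS replicates 1 to 3, 36.6%, 37.8% and 50.7% in Loop replicates 1 to 3, and 22.5%, 19.2% and 24.0% in the D0, D12 and D21 inputs. Ratios are therefore given as counted and, where named, after correction for fragment length, in which the count expected from 20 length classes entered the fit. A pair of libraries also stood apart by chromosome: chromosome 8 held 1.18 times its mean input share in HRS replicate 3 and 1.21 times in Loop replicate 3, against 0.983 to 1.03 times in the other libraries. HRS replicate 3 was also low on chromosome 12 (Esrrb, 0.899 times), chromosome 1 (Tfcp2l1 and Prdm14, 0.904 times) and chromosome 14 (Klf5, 0.912 times). The other libraries held 0.950 to 1.01 times there.

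The first question was whether the loci were kept in the HRS fraction and not set free with the Loop DNA. Measured over whole windows and scaled for library size, all 7 loci had log2 ratios of HRS over Loop above 0, and Klf4, Klf2, Klf5 and Zfp42 passed the test. These ratios ranged from 0.12 at Prdm14 to 1.68 at Zfp42, with a median of 0.44, against a median of -0.01 over all windows of 100 kb in the genome. Of those 100 kb bins, 24.0% were called higher in HRS and 25.5% lower. The locus windows themselves span 40 to 180 kb. The test was edgeR's quasi-likelihood test with Benjamini-Hochberg adjustment over all windows at 0.05. After correction for fragment length all 7 loci were called higher, with log2 ratios of 0.23 to 1.40, against 24.0% of 100 kb bins higher and 21.2% lower.

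**Figure D1:**
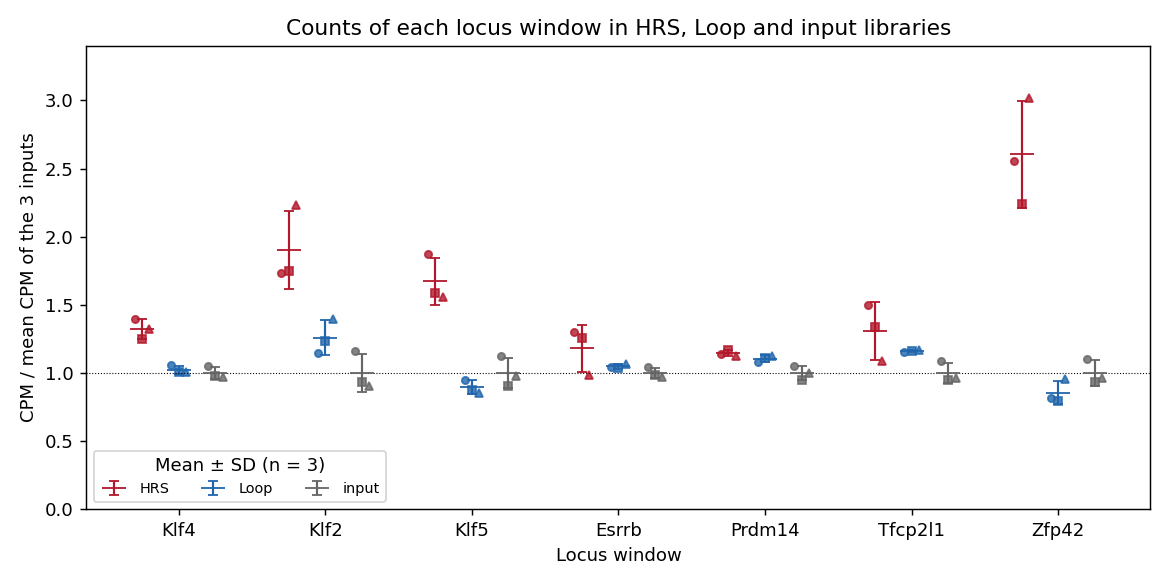
CPM of each locus window divided by the mean of the 3 inputs (y axis) for the 7 loci (x axis), with HRS in red, Loop in blue and input in grey. Circles, squares and triangles are replicates 1, 2 and 3 (D0, D12 and D21 for input), and the line with its bar is the mean ± SD (n = 3); Zfp42 stands highest in HRS, while at Esrrb and Tfcp2l1 the triangle of HRS replicate 3 lies below the 3 Loop values.

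Zfp42 had the highest ratio of the 7 loci. Its window held 31.9, 27.9 and 37.6 CPM (library-scaled counts) in HRS replicates 1 to 3, against 10.2, 9.92 and 11.9 CPM in Loop replicates 1 to 3 and 13.8, 11.6 and 12.01 CPM in the D0, D12 and D21 inputs. Every HRS library lay above every Loop and input library, while the Loop and input values overlapped. The log2 ratio was 1.68 ± 0.14 (SE) over Loop (3.20-fold, edgeR adjusted p = 1.52e-05) and 1.56 ± 0.14 over input (2.95-fold, adjusted p = 2.20e-05). Correction for fragment length gave 1.40 ± 0.16 over Loop and 1.61 ± 0.15 over input. Among all 100 kb bins, which are wider than this 40 kb window, the ratio over Loop stood at percentile 99.9 as counted and 99.7 after the correction.

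Among the Krüppel-like factors, Klf5 and Klf2 differed most and Klf4 less. Klf5, a factor that promotes proliferation of embryonic stem cells, had 67.1, 56.9 and 55.7 CPM in HRS, 34.1, 31.4 and 30.6 CPM in Loop, and 40.2, 32.3 and 35.0 CPM in input. The HRS values were all above the others, and the log2 ratio was 0.97 ± 0.08 over Loop (adjusted p = 8.65e-06) and 0.92 ± 0.10 over input (adjusted p = 4.96e-05). Klf2, a factor restrained by MEK signalling, had 85.1, 86.0 and 109.9 CPM in HRS, 56.6, 60.6 and 68.7 CPM in Loop, and 57.2, 45.9 and 44.5 CPM in input. Its HRS libraries again lay above all others, with a log2 ratio of 0.67 ± 0.15 over Loop (adjusted p = 0.00357) and 1.12 ± 0.16 over input (adjusted p = 0.000288). Klf4, a reprogramming factor and target of LIF signalling, had 90.9, 81.2 and 85.9 CPM in HRS, 68.7, 65.5 and 65.4 CPM in Loop, and 68.4, 63.5 and 63.1 CPM in input. No HRS value of Klf4 overlapped a Loop or input value, and its log2 ratio was 0.44 ± 0.10 over Loop (adjusted p = 0.00286) and 0.58 ± 0.11 over input (adjusted p = 0.00124). Length correction moved the ratios over Loop to 0.86 for Klf5, 0.90 for Klf2 and 0.56 for Klf4, all called.

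At Esrrb and Tfcp2l1, HRS replicates 1 and 2 lay above the Loop libraries and HRS replicate 3 below them. Esrrb had 212, 204 and 159.8 CPM in HRS replicates 1 to 3, 169, 168 and 173 CPM in Loop replicates 1 to 3, and 169.9, 159.5 and 158 CPM in input. HRS replicates 1 and 2 lay above every input library too, and HRS replicate 3 lay among the inputs. The log2 ratio was 0.24 ± 0.16 over Loop (adjusted p = 0.239) and 0.41 ± 0.17 over input (adjusted p = 0.0764). Without HRS replicate 3 the ratios were 0.30 (adjusted p = 0.00896) and 0.47 (adjusted p = 6.76e-06), and after length correction that over Loop was 0.40 (adjusted p = 0.0255).

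Tfcp2l1 had 119.5, 106.4 and 86.4 CPM in HRS replicates 1 to 3, 91.6, 92.1 and 92.7 CPM in Loop replicates 1 to 3, and 86.4, 75.6 and 76.6 CPM in input. HRS replicate 3 lay just below the D0 input and above D12 and D21, while the Loop libraries lay above every input library. The log2 ratio was 0.24 ± 0.12 over Loop (adjusted p = 0.113) and 0.56 ± 0.13 over input (adjusted p = 0.0046). The ratio over Loop was 0.31 without HRS replicate 3 (adjusted p = 0.00367), 0.24 with the replicate number as a block (adjusted p = 0.0479) and 0.46 after length correction (adjusted p = 0.00703). Over input the call was missed without D12 (adjusted p = 0.0583) or D21 (adjusted p = 0.0512).

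Prdm14 had the smallest ratio of the 7, although its libraries varied little. It held 38.0, 39.0 and 37.6 CPM in HRS, 35.9, 37.1 and 37.5 CPM in Loop, and 35.1, 31.5 and 33.3 CPM in input. The lowest HRS value lay just above the highest Loop value, and both fractions lay above all inputs. The log2 ratio was 0.12 ± 0.06 over Loop (adjusted p = 0.129), 0.23 ± 0.05 after length correction (adjusted p = 0.00839), and 0.37 ± 0.07 over input (adjusted p = 0.00145). The fit scales libraries otherwise than CPM, and the size of the ratio over input depended on such settings. Over 16 alternative edgeR and DESeq2 settings it ran from 0.197 to 0.403, with adjusted p up to 0.0499. Among 100 kb bins, wider than the 60 kb window of Prdm14, the ratio over Loop stood at percentile 64.7.

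The second question set the HRS fraction against input, whose fragment lengths were closer. All 7 log2 ratios were above 0, from 0.37 at Prdm14 to 1.56 at Zfp42, with a median of 0.58. In this comparison 6 of the 7 windows were called higher, Esrrb being the exception (DESeq2 called it, adjusted p = 0.0472), against 25.1% of 100 kb bins called higher and 16.8% lower. The order of the ratios was Zfp42, Klf2, Klf5, Klf4, Tfcp2l1, Esrrb and Prdm14. Each neighbouring pair in that order overlapped within 1 SE on either side, except Zfp42 and Klf2 and Klf5 and Klf4. Both HRS comparisons share the HRS libraries, so they are not independent. Scaling to library totals in place of TMM (edgeR's trimmed mean scaling) shifted the genome median of HRS over input to -0.17 at 100 kb, and 6 windows were still called. On that scale 34.4% of the called 100 kb bins were higher, against 59.9% under TMM.

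**Figure D2:**
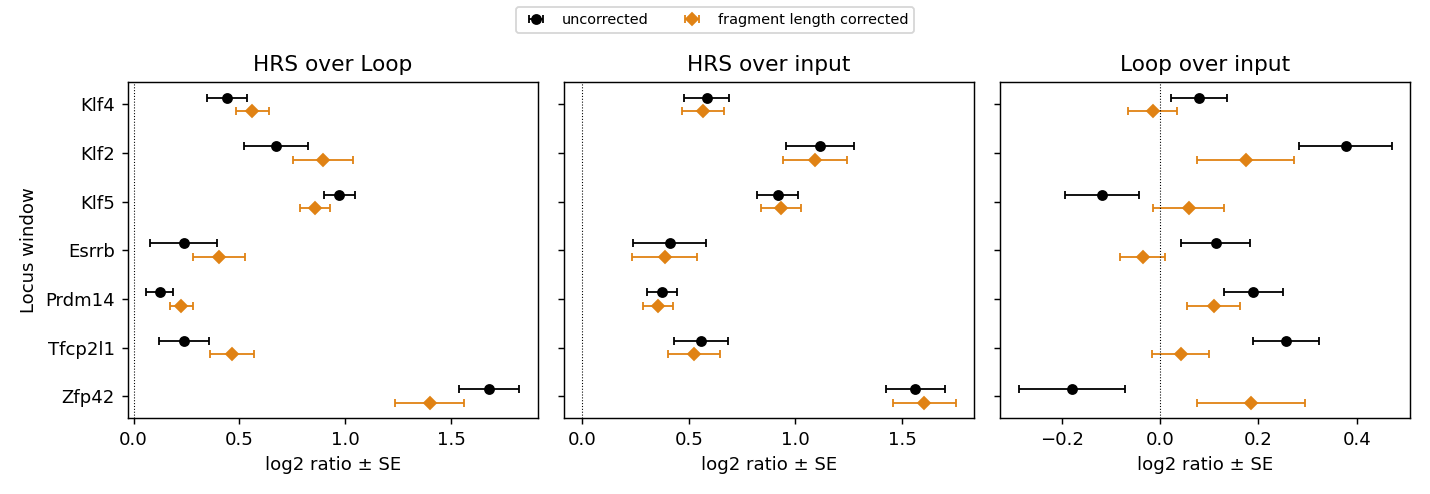
Log2 ratios of the 7 locus windows for HRS over Loop, HRS over input and Loop over input, as counted (black circles) and corrected for fragment length (orange diamonds), with bars of ± SE from edgeR. The HRS ratios lie right of 0 in both panels, from 0.12 to 1.68 over Loop and from 0.37 to 1.56 over input as counted, and the Loop over input values gather near 0 once length is corrected.

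Klf2 and Zfp42 lie on chromosome 8, whose share was raised in both replicate 3 libraries. With each row scaled to its own chromosome, the log2 ratio of HRS over input was 0.85 at Klf2 and 1.30 at Zfp42, and over Loop it came to 0.62 at Klf2 and 1.63 at Zfp42. All 4 were still called. On that scale Esrrb was called over input (0.33, adjusted p = 0.0151) and not over Loop (0.24, adjusted p = 0.0570), and the Tfcp2l1 ratio over Loop was 0.20 (adjusted p = 0.0666).

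The third question was whether the released Loop DNA itself differed from input at these loci. As counted, Klf2 (log2 0.38 ± 0.09, adjusted p = 0.0109), Tfcp2l1 (0.26 ± 0.07, adjusted p = 0.0139) and Prdm14 (0.19 ± 0.06, adjusted p = 0.0305) were called higher in Loop, against 13.1% of 100 kb bins higher and 13.7% lower. Klf4 (0.08), Esrrb (0.11), Klf5 (-0.12) and Zfp42 (-0.18) were not called. After length correction edgeR called 0 of the 7, and 0 reached an unadjusted p of 0.05, with log2 ratios between -0.035 and 0.185, against 0.0315% of 100 kb bins higher and 0.0118% lower. DESeq2, run without that correction, called 3. All 3 calls were lost without D12 and without D21, that of Prdm14 also without Loop replicate 2 or 3. Zfp42 was called lower in Loop without Loop replicate 3 (-0.28, adjusted p = 0.0463) and with its own chromosome as the scale (-0.33, adjusted p = 0.00858).

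Inside the windows the 10 kb bins differed from each other. Over Loop, 32 of the 64 bins were called higher in HRS, 4 lower and 28 not called, against 17.8% of all tested bins higher and 20.4% lower. The median log2 ratio of the 64 bins was 0.42, against 0.01 over all bins. With length corrected, 39 were higher and 1 lower (genome 15.0% and 8.43%), and 31 of the 36 called bins were also among these 40, in the same direction. With the replicate block 34 were higher and 8 lower (genome 20.4% and 22.8%). Over input, 40 bins were higher and 2 lower (genome 15.2% and 9.16%), with a median log2 ratio of 0.62 against -0.03 over all bins. Loop over input gave 23 bins higher and 8 lower as counted (genome 21.5% and 18.0%), of which none was kept after length correction (genome 0.267% and 0.0786%). In that corrected edgeR fit 4 bins were higher and 1 lower at an unadjusted p under 0.05, and DESeq2 without the correction called 23 higher and 7 lower.

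**Figure D3:**
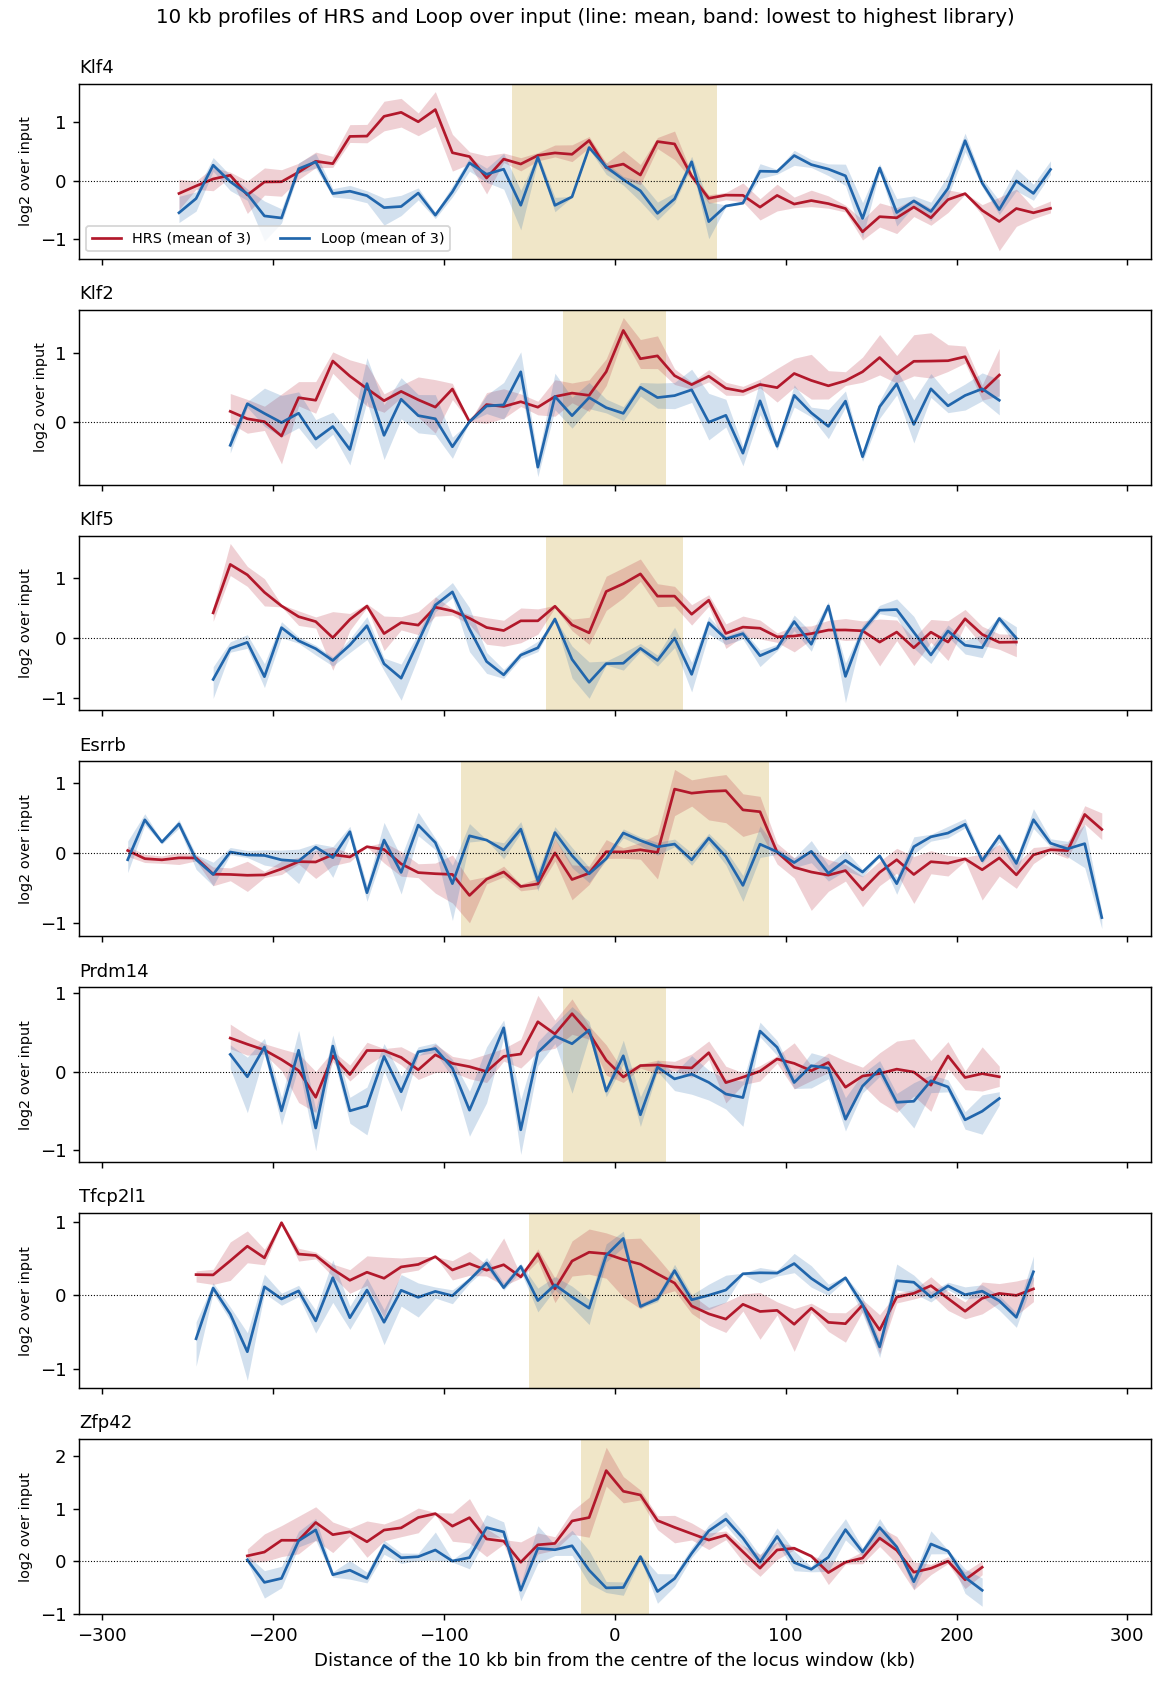
Log2 ratio of CPM over input in 10 kb bins (y axis) against distance from the centre of each locus window in kb (x axis), for HRS (red) and Loop (blue), with the mean of 3 libraries as a line, the lowest to highest library as a band and the window shaded. HRS peaks inside the Zfp42 and Klf5 windows and over the last bins of the Esrrb window, and at Klf4 it is highest left of the window.

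All 4 bins of the Zfp42 window were higher in HRS than in Loop and in input. The bin from 44370001 to 44380000 had 6.93, 6.21 and 10.7 CPM in HRS replicates 1 to 3, 1.40, 1.21 and 1.14 CPM in Loop replicates 1 to 3, and 2.28, 1.82 and 1.85 CPM in input. The groups were far apart, with 6.29-fold more in HRS than in Loop (log2 2.65 ± 0.21, edgeR adjusted p = 2.40e-08) and 4.07-fold more after length correction. The next bin, from 44380001, averaged 6.21 CPM in HRS, 1.36 CPM in Loop and 2.13 CPM in input, a log2 ratio over Loop of 2.16. The outer bins had log2 ratios over Loop of 1.07 (from 44360001) and 1.27 (from 44390001). The same 2 middle bins were called lower in Loop than in input, by 0.54 and 0.51 on the log2 scale, and neither call held after length correction.

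In the Klf5 window 7 of 8 bins were called higher in HRS than in Loop, and 8 of 8 after length correction. The highest ratio was in the bin from 99690001 to 99700000, which had 3.51, 3.01 and 2.20 CPM in HRS, 0.938, 0.938 and 1.00 CPM in Loop, and 1.54, 1.36 and 1.47 CPM in input. Each HRS value exceeded every Loop and input value, and the log2 ratio was 1.57 ± 0.21 over Loop (adjusted p = 1.15e-05) and 1.23 after length correction. The bin from 99710001 held the most HRS DNA of the window, averaging 14.7 CPM in HRS, 5.88 CPM in Loop and 6.66 CPM in input. The first bin, from 99660001, was the only one of the 8 not called over Loop as counted (log2 0.20), and it was called over input (0.70).

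In the Klf2 window 6 of 6 bins were called higher in HRS than in input, and 3 of 6 than in Loop, or 5 of 6 after length correction and 5 of 6 with the replicate block. The bin from 74840001 to 74850000 had the highest ratio, with 20.2, 20.0 and 24.5 CPM in HRS, 8.32, 9.09 and 9.67 CPM in Loop, and 9.86, 7.79 and 7.05 CPM in input. HRS lay above both other groups in every library, 2.36-fold over Loop (log2 1.24 ± 0.18, adjusted p = 2.04e-05) and 2.87-fold over input (log2 1.52 ± 0.18, adjusted p = 1.11e-05). The lowest ratio over Loop was 0.01 in the bin from 74820001, where the ratio over input was 0.56.

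In the Klf4 window 5 of 12 bins were called higher in HRS than in Loop, 9 of 12 after length correction, and 8 of 12 over input. The bin from 55530001 to 55540000, whose 6 fragments average 1722 bp, had 5.75, 4.98 and 5.66 CPM in HRS, 2.40, 1.91 and 1.84 CPM in Loop, and 3.25, 3.06 and 3.42 CPM in input. The HRS values were highest and the Loop values lowest, with a log2 ratio of HRS over Loop of 1.39 ± 0.16 (adjusted p = 1.46e-06), 0.93 after length correction, and 0.88 over input. In the bin from 55550001, the ratio over Loop was -0.28 as counted and 0.20 after correction, neither of them called.

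The Esrrb window was split. Its last 6 bins, from 87810001 to 87870000, were all called higher in HRS than in Loop and in input, with log2 ratios of 0.46 to 1.12 over Loop and 0.76 to 1.12 over input. In its first 12 bins none was called higher in HRS over either, 4 were called lower than in Loop (7 with the replicate block) and 2 lower than in input. The last 6 bins summed to 112.9, 104.9 and 75.1 CPM in HRS replicates 1 to 3, 53.0, 51.4 and 57.9 CPM in Loop replicates 1 to 3, and 55.8, 53.9 and 52.9 CPM in input. All 3 HRS libraries, replicate 3 included, were above every other library there, and the mean was 1.805 times that of Loop. The first 12 bins summed to 98.8, 98.9 and 84.7 CPM in HRS, 116.5, 116.5 and 115.6 CPM in Loop, and 114.1, 105.6 and 105.1 CPM in input, so every HRS library lay below the rest. In CPM, all HRS libraries lay below all Loop libraries in 35.5% of 100 kb bins of the genome and above them in 22.1%. Against input these shares were 42.7% below and 20.0% above. The division of the Esrrb window was drawn after the values were seen and carries no test of its own. The bin from 87850001 had the highest ratio over Loop (1.12 ± 0.17, adjusted p = 3.91e-05) and that from 87690001 the lowest (-0.999 ± 0.18, adjusted p = 0.000221). The lowest bin was no longer called after length correction (-0.44, adjusted p = 0.0864), and of the 4 lower calls 1, in the bin from 87720001, was kept (-0.42, adjusted p = 0.0119).

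In the Tfcp2l1 window 5 of 10 bins were called higher in HRS than in Loop, and 7 of 10 both after length correction and over input. The bin from 120530001 to 120540000 had 6.93, 5.39 and 4.35 CPM in HRS, 3.29, 3.32 and 2.52 CPM in Loop, and 3.14, 3.64 and 3.64 CPM in input. HRS was higher in every library, with a log2 ratio of 0.85 ± 0.16 over Loop (adjusted p = 0.000321). The bin from 120550001, in which 9 of 18 fragments are 200 bp or shorter, had the lowest ratio over Loop at -0.29. That ratio was 0.50 after length correction (adjusted p = 0.0448), and Loop exceeded input there by 0.94 on the log2 scale as counted and by 0.10 after correction, a ratio that was not called.

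In the Prdm14 window 2 of 6 bins were called higher in HRS than in Loop by edgeR and by DESeq2. After length correction edgeR called 0 of 6, with 4 at an unadjusted p under 0.05. The bin from 13120001 had the highest ratio, with 4.06, 3.89 and 4.02 CPM in HRS, 2.91, 2.26 and 2.13 CPM in Loop, and 4.198, 3.43 and 3.64 CPM in input. HRS exceeded Loop in every library but overlapped input, and the log2 ratio over Loop was 0.69 (adjusted p = 0.00183) as counted and 0.24 (adjusted p = 0.217) after correction. The lowest ratio over Loop was in the bin from 13110001, which had 9.63, 10.1 and 10.7 CPM in HRS, 11.5, 11.4 and 14.2 CPM in Loop, and 11.3, 10.6 and 10.1 CPM in input. Every HRS value was below every Loop value, and the log2 ratio was -0.31 (adjusted p = 0.133). It was called lower with the replicate block (-0.30, adjusted p = 0.0384) and without HRS replicate 3 (-0.42, adjusted p = 0.0190), and was -0.05 after length correction (adjusted p = 0.795). Over input, the 2 bins called were the first 2 of the window, from 13080001 (1.04) and 13090001 (0.65).

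The surroundings of the loci differed. In the 200 kb left of the Klf4 window HRS exceeded Loop by a log2 ratio of 0.73 (adjusted p = 0.000353), higher than the 0.44 of the window itself, and in the 200 kb to its right it was -0.45 (adjusted p = 0.00395). Tfcp2l1 had 0.49 on the left (adjusted p = 0.0102), above the 0.24 of its window. On its right it had -0.18 (adjusted p = 0.368), where length correction gave 0.005. Klf5 had 0.61 on the left (adjusted p = 0.000465) and 0.13 on the right (adjusted p = 0.364), and Zfp42 had 0.45 on the left (adjusted p = 0.0245) and -0.003 on the right (adjusted p = 0.983). Klf2 had 0.27 on the left (adjusted p = 0.296) and 0.56 on the right (adjusted p = 0.0562). Both were called with the replicate block (adjusted p = 0.0412 on the left and 0.00177 on the right), and the right one also after length correction (0.74, adjusted p = 0.00916). Esrrb had -0.18 and -0.12, neither called. Prdm14 had 0.22 on the left (adjusted p = 0.0907, or 0.0355 with the block and 0.0214 after length correction) and 0.24 on the right (adjusted p = 0.0445, or 0.0839 after length correction). As counted, both lay above the 0.12 of its window. After length correction the left flank had 0.26 and the right 0.17, against 0.23 in the window. Over input, left flanks called higher exceeded the window at Klf4 (0.71 against 0.58), Tfcp2l1 (0.64 against 0.56) and Prdm14 (0.40 against 0.37). Called higher but below the window were both Klf2 flanks (0.56 and 0.91), both Zfp42 flanks (0.82 and 0.38) and Klf5 left (0.70). The right flank of Klf4 was called lower (-0.33), and the others were not called.

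Each window was also set against its own flanks inside each library, a measure that needs no scaling between libraries and that a change of a whole chromosome leaves alone. The log2 of counts per fragment in the window over those in its 2 flanks was 1.25, 1.19 and 1.35 for Zfp42 in HRS, -0.18, -0.19 and -0.13 in Loop, and 0.31, 0.39 and 0.30 in input. As counted, without length correction, the Zfp42 window thus stood above its surroundings in HRS and input and below them in Loop. The difference of HRS minus Loop was 1.42 at Zfp42, 0.63 at Klf5, 0.38 at Esrrb, 0.34 at Klf4 and 0.23 at Klf2, with every HRS library above every Loop library at these 5 loci. This held for 27.3% of 100 kb bins set against their own flanks. The exact two-sided permutation p was 0.1 at each of the 5, the smallest that 3 libraries against 3 can give. At Tfcp2l1 (0.13) and Prdm14 (-0.11) the libraries overlapped. After division by the counts expected from fragment lengths, every HRS library of Tfcp2l1 lay above every Loop library (0.21), and Prdm14 still overlapped (0.006). The other 5 stayed apart, with 1.07 at Zfp42, 0.49 at Klf5, 0.44 at Klf4, 0.37 at Esrrb and 0.29 at Klf2 (genome 22.1%). Against input, 6 of 7 loci had all HRS libraries above (genome 20.9%), from 0.25 at Tfcp2l1 to 0.93 at Zfp42, and Prdm14 overlapped (0.07). For Esrrb this holds with HRS replicate 3, whose value was 0.25, against 0.47 and 0.45 in replicates 1 and 2, -0.004 to 0.022 in Loop and 0.001 to 0.074 in input.

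Loop set against input in the same way was lower at Zfp42 (-0.50) and Klf5 (-0.19) and higher at Prdm14 (0.18), Tfcp2l1 (0.11) and Klf4 (0.07), with no overlap of libraries (genome 23.7% higher and 27.2% lower). After division by the counts expected from fragment lengths, all 7 loci overlapped (genome 8.77% higher and 9.23% lower).

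At the level of single fragments, 48 of the 946 fragments had no count in any library and 783 had a mean of 10 counts or more over the 9 libraries. Among the 565 of these longer than 200 bp, all 3 HRS values exceeded all 3 Loop values in 305 and fell below them in 4, against 27.7% and 2.36% in the genome. The share was highest at Zfp42, with 24 of 25 such fragments, followed by Klf5 with 46 of 58 and Klf2 with 51 of 65. It was 47 of 87 at Klf4, 41 of 91 at Tfcp2l1, 20 of 45 at Prdm14 and 76 of 194 at Esrrb. Of the 218 fragments of up to 200 bp, 11 were above Loop and 92 below, against 1.81% and 55.1% in the genome.

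Over input, where length mattered less, 243 of the 783 fragments were higher in all HRS libraries and 53 lower, against 11.4% and 15.9% in the genome. Zfp42 had 24 of 28 above input, Klf2 55 of 90, Klf5 33 of 68, Klf4 31 of 120, Tfcp2l1 30 of 139, Prdm14 10 of 64 and Esrrb 60 of 274. Of the 53 that were lower, 38 were in the Esrrb window. They were 38 of its 274 fragments, a share below the 15.9% of the genome. The median log2 ratio over input was 0.38 for the fragments of the 7 loci and -0.10 for all fragments of the genome with that count.

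**Figure D4:**
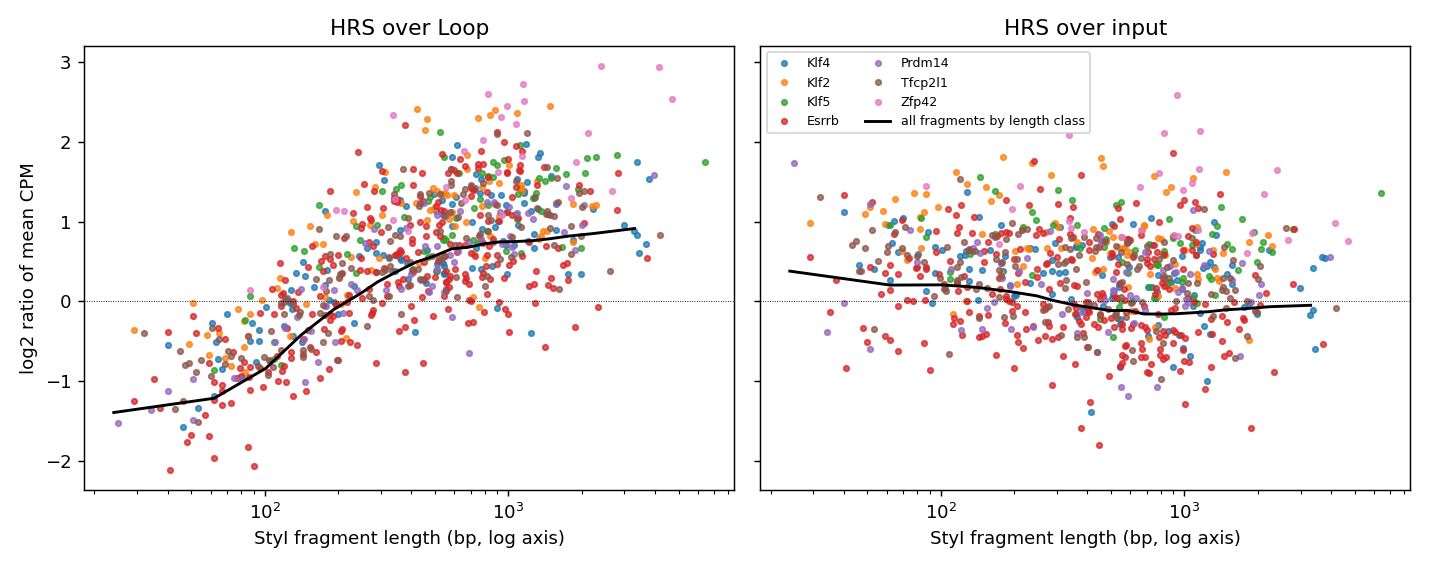
Log2 ratio of mean CPM of single StyI fragments of the 7 loci (points, coloured by locus) against fragment length in bp on a log axis, for HRS over Loop and HRS over input, with the ratio of all genome fragments in 20 length classes as a black line. The genome line climbs from -1.39 to 0.91 over Loop and stays between -0.16 and 0.38 over input, and 24 of the 28 Zfp42 fragments drawn had every HRS library above every input.

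The most counted fragment of a window differed between HRS and Loop at 5 of the 7 loci. Each was picked by its mean CPM in that fraction, so its ratio of HRS to Loop is descriptive only. At Klf4 the fragment with the most HRS DNA (55545202 to 55545497, 295 bp) had 116, 79 and 95 counts in HRS replicates 1 to 3, 38, 40 and 32 in Loop replicates 1 to 3, and 52, 86 and 73 in the D0, D12 and D21 inputs. Its HRS level was 3.47 times its Loop level in mean CPM. The fragment with the most Loop DNA in that window (55463841 to 55463905, 64 bp) had 98, 76 and 85 counts in HRS, 173, 207 and 187 in Loop, and 60, 46 and 50 in input, and its HRS level was 0.599 times its Loop level. Its log2 ratio with 0.05 CPM added was -0.72, against -1.21 for all genome fragments of 43 to 81 bp. At Esrrb the top HRS fragment (87838345 to 87838575, 230 bp) lay in the last 6 bins, with 169, 158 and 97 counts in HRS, 69, 68 and 107 in Loop, and 72, 69 and 73 in input. At Tfcp2l1 it was a 163 bp fragment (120508646 to 120508809) with 103, 110 and 101 counts in HRS, 87, 98 and 148 in Loop, and 82, 68 and 65 in input, and its HRS and Loop values overlapped in CPM.

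At Klf5 the top HRS fragment (99715649 to 99715816, 167 bp) had 271, 202 and 153 counts in HRS, 109, 86 and 144 in Loop, and 129, 81 and 77 in input, and its HRS level was 2.35 times its Loop level. At Klf2 it was a 284 bp fragment (74860453 to 74860737) with 200, 157 and 157 counts in HRS, 73, 73 and 94 in Loop, and 97, 71 and 40 in input. In both, every HRS value in CPM exceeded every Loop and input value, though both were picked for their high HRS level. The top Loop fragments of the other windows were short. That of Klf2 (74865216 to 74865281, 65 bp) had 96, 123 and 155 counts in HRS, 192, 259 and 214 in Loop, and 73, 52 and 65 in input. That of Klf5 (99665017 to 99665134, 117 bp) had 87, 87 and 67 counts in HRS, 179, 170 and 199 in Loop, and 96, 77 and 74 in input. The HRS level was 0.756 times the Loop level in the Klf2 fragment and 0.567 times in that of Klf5. The top Loop fragment of Esrrb (87830335 to 87830404, 69 bp) had 144, 156 and 79 counts in HRS, 204, 290 and 175 in Loop, and 76, 59 and 82 in input. That of Tfcp2l1 (120542513 to 120542558, 45 bp) had 119, 118 and 64 counts in HRS, 197, 250 and 148 in Loop, and 70, 59 and 79 in input. Here the HRS level was 0.719 times the Loop level at Esrrb and 0.644 times at Tfcp2l1. On the log2 scale with 0.05 CPM added, the ratio was -0.40 at Klf2, -0.47 at Esrrb and -0.62 at Tfcp2l1. All genome fragments of 43 to 81 bp together had -1.21. The Klf5 fragment had -0.80, against -0.84 for all genome fragments of 82 to 119 bp. At Zfp42 and Prdm14 a single short fragment led in both fractions. The Zfp42 fragment (44392237 to 44392324, 87 bp) had 90, 112 and 109 counts in HRS, 115, 134 and 123 in Loop, and 50, 26 and 60 in input. Its share of the window's CPM was 6.86% in HRS, 18.9% in Loop and, in input libraries, 6.29%. The Prdm14 fragment (13095486 to 13095537, 51 bp) had 53, 96 and 66 counts in HRS, 185, 224 and 152 in Loop, and 34, 31 and 43 in input, and its share of that window's CPM was 3.97% in HRS, 8.23% in Loop and, in input libraries, 1.88%.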

How the data were processed

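Fragments were counted by short tags from StyI ends, made by the enzyme MmeI, per the labels' protocols. The submitters' processing notes name CASAVA 1.8.2 and build mm9. How tags were aligned, and what was done with those matching several places, is not given in the sources used here. Each library has a deposited table of whole-number counts per StyI fragment. The last interval of each of 21 chromosomes was left out.

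Counts were summed by fragment midpoint into 10 kb bins and into a table of 100 kb bins with the 7 windows and their 200 kb flanks as added rows. These were fitted genome-wide with edgeR 4.0.16 in R 4.3.3 (glmQLFit, glmQLFTest, TMM, filterByExpr with a minimum count of 10), separately for each pair of groups. Adjusted p-values cover all rows tested, and 0.05 was the threshold. CPM are counts scaled by the library total. The scripts were tested on simulated counts. All 64 bins and 7 windows passed the filter.

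The members, windows and settings were chosen with earlier results of these data known. All 7 loci are named, with the bin of highest and of lowest HRS over Loop ratio and the fragments with most HRS and most Loop counts in each. Other bins named were chosen after their values were seen. Same-numbered HRS and Loop libraries deviated together (correlations 0.157, 0.11 and 0.229 over 10 kb bins), each over 0.1, and were taken as pairs in the block fits. The pairing is weak: HRS replicate 2 correlated more with Loop replicate 1 (0.122), and without chromosomes 8 and 11 its own pair fell to 0.098. The same pairing stands in the titles, where HRS and Loop libraries share the names ES1 to ES3. The titles do not state that same-numbered libraries came from the same preparation. The main fits had no block. Alternatives were DESeq2 1.42.0, other scalings, filters, thresholds and flank widths, fragments over 200 bp only, all 9 libraries in 1 fit, a length correction and each library left out. Other genes of the pathway were not analysed here, as no mm9 annotation was used.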

Additional observations from a re-analysis of the deposited data

How the results depend on the processing

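HRS over Loop and HRS over input kept their totals of called bins within 1.5 times under every alternative run. The lower calls among them moved more. They ran from 1 to 8 bins over Loop (4 in the main fit) and from 0 to 5 over input (2 in the main fit). With the replicate block, 42 of the 64 bins were called over Loop, against 36 without it, and 43 with the block and length correction. The windows called over Loop numbered 4, 5 with the replicate block, and 7 with length correction, with or without the block. No paired analysis was possible with the inputs because their labels carry no replicate numbers. Leaving out 1 library gave 30 to 38 bins and 4 to 6 windows over Loop, 33 to 45 bins and 5 to 7 windows for HRS over input, and 21 to 34 bins and 0 to 3 windows for Loop over input. Loop over input depended most on settings. Its 31 called bins became 19 at an adjusted p of 0.01, 1 with fragments over 200 bp only and 0 with length correction. Its 3 windows became 0 under each of these settings and with all 9 libraries in 1 fit. Its 5 windows apart from their flanks became 3 with 100 kb flanks, 3 with 500 kb flanks, 3 with fragments over 200 bp and 0 with length correction.

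Log2 ratios of the windows and of their highest and lowest bins changed sign as follows. For HRS over Loop, the lowest Klf4 bin (-0.28) became 0.195 with length correction, 0.194 with the replicate block added and 0.108 with fragments over 200 bp. The lowest Tfcp2l1 bin (-0.29) became 0.499, 0.466 and 0.779 under the same 3 settings. The lowest Klf2 bin (0.015) lay between -0.18 and 0.163 when 1 library was left out, with -0.18 without HRS replicate 3, -0.092 without Loop replicate 1 and -0.018 without Loop replicate 2, and was -0.015 without both replicate 3 libraries. For HRS over input, the Prdm14 bin from 13110001 (0.062) lay between -0.014 and 0.124 when 1 library was left out, and became -0.073 with library totals, -0.009 with chromosome totals, -0.074 with fragments over 200 bp, -0.014 without HRS replicate 3 and -0.051 without it under length correction. For Loop over input, length correction gave -0.015 at Klf4, 0.058 at Klf5, -0.035 at Esrrb and 0.185 at Zfp42. Fragments over 200 bp gave -0.088 at Klf4, -0.037 at Esrrb and -0.019 at Tfcp2l1. Against flanks, fragments over 200 bp gave -0.129 at Klf4 and -0.094 at Tfcp2l1, and length correction gave -0.052 at Klf4. Where the libraries overlapped against flanks, the alternatives ran from -0.164 to 0.039 at Prdm14 for HRS over Loop, from -0.023 to 0.118 at Prdm14 for HRS over input, and, for Loop over input, from -0.076 to 0.073 at Esrrb and from -0.003 to 0.173 at Klf2. The causes were not tested.

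Ratios of bins with few counts are the least precise, such as the highest Klf5 bin with 59 counts in each Loop library. Fractions are relative within a library, so more DNA kept at a locus and less DNA kept elsewhere cannot be told apart. Tags that match several places were not examined here. The inputs D0, D12 and D21 are not explained in the labels.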
